A study of Mus musculus with 7 samples.

Results

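The 10 genes described here sit around ATF4, the transcription factor that cells use when amino acids run short. They are Eif2ak4, Atf4, Atf5, Ddit3, Asns, Trib3, Ppp1r15a, Sesn2, Ddit4 and Eif4ebp1, chosen by name from the 38293 genes of the count table, and each name matched 1 gene. All 10 passed the filter on low counts that 14869 genes passed. RNA was sequenced from ileal scrapings, taken from the last part of the small intestine, of 4 mice on the normal cystine diet (normal cys) and 3 mice on the low cystine diet (low cys). All mice were male C57BL/6NRJ animals, 8 weeks old and individually housed, and had 1 week on the high fat AIN93G control diet before the 2 weeks of intervention. Both diets were low in calcium and drew 40% of their energy from fat. The normal cys diet held 0.38% cystine and the low cys diet 0.08%, since alanine took the place of the added cystine. The mice were fasted before sacrifice. By the study's methods, scraping took the epithelium with the lamina propria beneath it and not the muscle. Mice can also make cysteine from methionine.

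When an amino acid is scarce, uncharged transfer RNA activates GCN2, the kinase encoded by Eif2ak4, which phosphorylates the initiation factor eIF2. General translation then slows, while the ATF4 messenger is translated better, so that ATF4 protein can rise without a change of its messenger. ATF4 binds C/EBP-ATF response elements and turns on genes for amino acid synthesis (Asns), further transcription factors (Atf5 and Ddit3) and feedback (Trib3 and Ppp1r15a). It also turns on genes for restraint of the growth kinase complex mTORC1 (Sesn2 and Ddit4), and Eif4ebp1, whose product mTORC1 phosphorylates. Other stresses reach the same genes through the other eIF2 kinases. Phosphorylation and protein levels were not measured here.

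The core of the C/EBP-ATF response element, TGATGNAA on either strand, was searched in RefSeq promoter windows of GRCm38.p6, which hold 250 bases before and 50 bases after a transcription start. A window was available for 9 of the 10 genes, and Eif4ebp1 was not matched. The core was in the windows of 2 of the 9 genes, Asns and Trib3, and in those of 8 of 25 other known ATF4 target genes, against 4.51% of all 27025 genes with a window. The palindromic cAMP response element TGACGTCA, bound by related factors, was found in the window of 1 of the 9 genes, Ppp1r15a, against 2.03% of all genes. The windows of the 3 genes with a match are shown, and beside them those of the target genes Chac1, whose level comes up again in the results, and Nupr1 as a further example of the core. Capitals mark the element and each sequence reads 5′ to 3′ on the strand named.
Asns, chr6:7693215-7693242, minus strand: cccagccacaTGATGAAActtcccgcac
Trib3, chr2:152344029-152344056, plus strand: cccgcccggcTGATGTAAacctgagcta
Ppp1r15a, chr7:45526263-45526290, minus strand: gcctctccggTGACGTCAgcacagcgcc
Chac1, chr2:119351039-119351066, minus strand: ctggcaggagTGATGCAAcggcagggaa
Nupr1, chr7:126625563-126625590, plus strand: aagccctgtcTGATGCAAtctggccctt
The Asns element lies before the start of transcription, with 15 bases in between. That of Trib3 lies after the start, with 14 bases in between, on the strand opposite to the gene. Of the windows shown for the C/EBP-ATF element, those of Chac1 and Nupr1 share the core TGATGCAA, while Asns and Trib3 have TGATGAAA and TGATGTAA. A match of letters is not a binding site, and the windows of Atf4, Atf5, Ddit3, Sesn2, Ddit4 and Eif2ak4 do not hold these letters.

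The normal cys libraries held 19712355 to 22412703 counts and the low cys libraries 14888760 to 21942518, so that the 10 genes had between 80 (Eif2ak4) and 5574 (Atf4) counts in a library. Counting error alone was then at most 11.2% of a value for Eif2ak4 and at most 1.88% for Atf4. Values are CPM, counts scaled to the library size after TMM normalization, and fold changes are low cys over normal cys from edgeR's quasi-likelihood test across all 14869 genes. The biological coefficient of variation, the spread of a gene among mice fed alike, was 25.5%. The levels of cell type markers were not the same in all libraries. The summed level of 16 enterocyte markers, of which none was at 0, was 51659 to 75194 CPM in the normal cys and 30025 to 51023 CPM in the low cys libraries, and that of 8 tested stroma markers (of 9 listed) was 25.97 to 31.8 and 41.6 to 46.9 CPM, respectively. The low cys library X23SI4 had the lowest enterocyte sum (30025 CPM). It also had the highest sum of 11 crypt and proliferation markers (430 CPM, against 136 to 381 CPM in the other libraries). Estimates that rest on X23SI4 are also given without it. Normal cys library X1SI4 had the lowest crypt sum (136 CPM) and the lowest sum of 8 Paneth cell markers (833 CPM). It was the highest library in 24.4% and the lowest in 24.9% of all genes tested, against 18% and 18.8% for X23SI4. All 7 smooth muscle markers had higher estimates in low cys, with a median log2 fold change of 1.44. An unadjusted edgeR p under 0.05 was reached by 2 of them, against 5.49% of all genes tested. Without X23SI4 it was reached by 6 of them, where the count over all genes went from 817 to 258. Myh11, a smooth muscle myosin, had 0.478 to 2.61 CPM in normal cys and 0.612, 10.7 and 3.16 CPM in low cys. In bulk tissue, fewer cells of a type and less RNA per cell cannot be told apart.

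None of the 10 genes differed between the diets at an adjusted p-value under 0.05 (edgeR, Benjamini-Hochberg over all genes tested), where 0 of all genes tested (0%) passed. With DESeq2, 0 of the 10 genes and 0.108% of all genes passed. The smallest adjusted p among the 10 was 0.794. At an unadjusted edgeR p-value under 0.05 there was 1 of the 10, Trib3, against 5.49% of all genes tested. Its estimate was lower in low cys, and of all genes 2.83% passed with a lower and 2.66% with a higher estimate. At an unadjusted DESeq2 p-value under 0.05 there were 2 of the 10, Trib3 and Ddit3, against 6.32% of all genes. The libraries of the diets overlapped in all 10 genes, while they were fully apart in 6.83% of all genes tested, with low cys higher in 3.32% and lower in 3.51%. The estimate was higher in low cys for 5 genes and lower for 5, with a median log2 fold change of -0.08, against 0.01 over all genes tested. Without X23SI4 it was higher for 2 and lower for 8, with a median of -0.28. The largest estimates were a 1.94-fold higher level of Ddit4, which came from 1 mouse, and a fold change of 0.574 for Trib3.

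**Figure D1:**
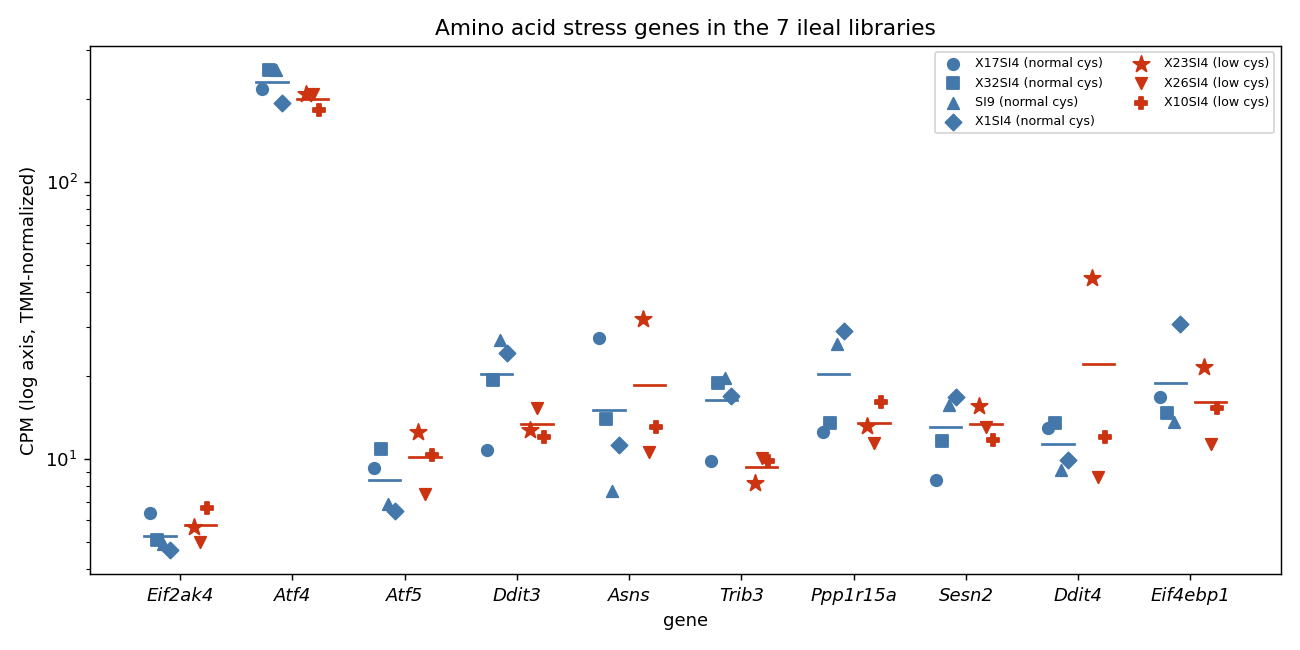
Level of each gene in the 7 libraries, in CPM on a log axis, with 1 symbol per library, normal cys in blue and low cys in red, and horizontal bars at the group means. Trib3 is near 10 CPM in the 3 low cys libraries and in normal cys library X17SI4, and Ddit4 is at 45.1 CPM in low cys library X23SI4 alone.

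**Figure D2:**
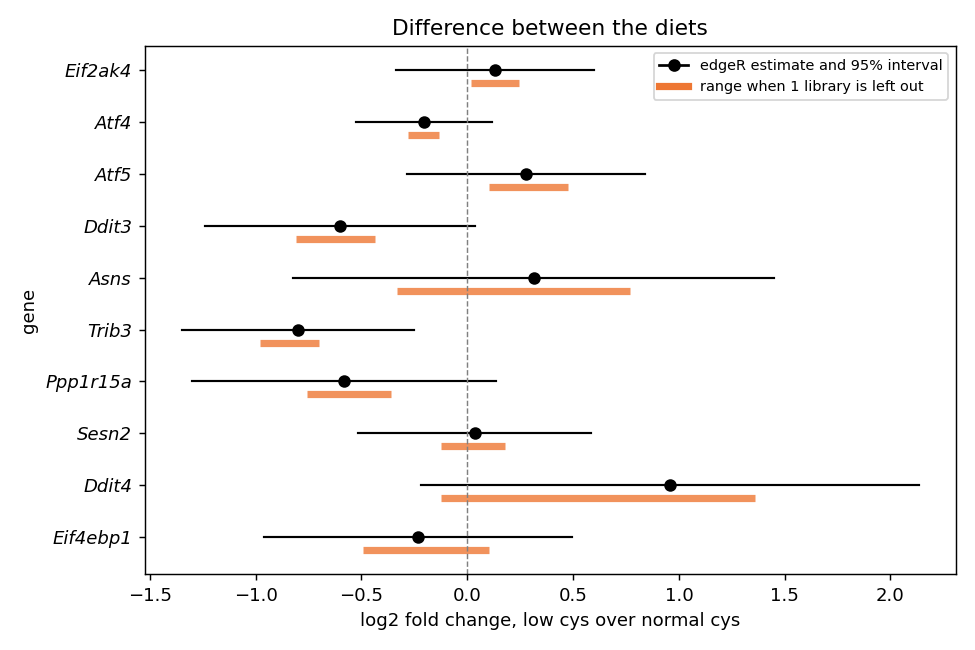
Log2 fold change of each gene, low cys over normal cys, with its 95% interval from edgeR in black and the range of the estimate when 1 library is left out in orange. The interval of Trib3 excludes 0 before adjustment, and the estimates of Asns, Ddit4, Sesn2 and Eif4ebp1 cross 0 when single libraries are left out.

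The sensor kinase and ATF4 itself came first in the pathway and varied least. Eif2ak4 encodes GCN2 and lies on chromosome 2 of GRCm38 from 118388618 to 118452290. Its level was 6.37, 5.09, 4.94 and 4.68 CPM in normal cys libraries X17SI4, X32SI4, SI9 and X1SI4, and 5.67, 4.9997 and 6.64 CPM in low cys libraries X23SI4, X26SI4 and X10SI4. The groups overlapped, and the highest library, X10SI4, was 1.42 times the lowest. The fold change was 1.09 (95% interval 0.791 to 1.51, adjusted p = 0.872 in edgeR). Atf4 lies on chromosome 15 from 80255184 to 80257540. Its level was 217, 253, 254 and 192 CPM in the normal cys libraries, in the same order, and 208, 207 and 182 CPM in the low cys libraries. X10SI4 was the lowest of all 7 libraries, and the other low cys libraries lay between the lowest and the next normal cys library. The means were 229 ± 30.0 (SD, n = 4) and 199 ± 14.6 CPM (SD, n = 3), a fold change of 0.869 (95% interval 0.695 to 1.08, adjusted p = 0.794 in edgeR). With total counts in place of TMM, which moves the median log2 fold change of all genes by 0.14, the log2 fold change of Atf4 went from -0.20 to -0.06.

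The estimates of the transcription factors downstream of ATF4 had opposite signs, and neither passed the test. Atf5 encodes a relative of ATF4 that is itself translated better under stress, and lies on chromosome 7 from 44812257 to 44816658. It had 9.30, 10.9, 6.89 and 6.497 CPM in normal cys and 12.5, 7.4995 and 10.4 CPM in low cys. X23SI4 was the highest library and the other low cys libraries lay within the normal cys range. The fold change was 1.21 (95% interval 0.820 to 1.79, adjusted p = 0.809 in edgeR). Without X23SI4 the log2 fold change went from 0.28 to 0.10. Ddit3 encodes CHOP, a factor of prolonged stress that can lead to cell death, and lies on chromosome 10 from 127290774 to 127296288. It had 10.8, 19.3, 26.8 and 24.1 CPM in normal cys and 12.8, 15.2 and 12.1 CPM in low cys. The low cys libraries lay below 3 of the 4 normal cys libraries, but normal cys library X17SI4 was the lowest of all 7. The fold change was 0.659 (95% interval 0.424 to 1.03), with an unadjusted p of 0.0616 and an adjusted p of 0.794 in edgeR. Without X17SI4 the unadjusted p was 0.00155, and without any other single library it was 0.0792 to 0.156. Of its exon bases, 3.97% overlap exons of Mars, the methionyl-tRNA synthetase, on the opposite strand, and for Atf5 4.12% overlap Nup62 and Il4i1. The strand setting of the counting is not given in the sources used here, so these reads cannot be told apart.

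Asns encodes asparagine synthetase, the classical target of the amino acid response, and lies on chromosome 6 from 7675169 to 7693254. Its level was 27.3, 13.9, 7.68 and 11.2 CPM in normal cys and 32.04, 10.6 and 13.0 CPM in low cys. High levels occurred on both diets, in normal cys library X17SI4 and low cys library X23SI4, and the spread within each diet was larger than the difference between them. The means were 15.02 ± 8.56 (SD, n = 4) and 18.6 ± 11.7 CPM (SD, n = 3), a fold change of 1.24 (95% interval 0.566 to 2.73, adjusted p = 0.872 in edgeR). Without X23SI4 the log2 fold change went from 0.31 to -0.33. X23SI4 and X17SI4 also had the highest sums of crypt and proliferation markers, 430 and 381 CPM, while X10SI4 had 380 CPM of these markers and 13.0 CPM of Asns. The part of the crypt markers in the Asns level was not tested. The exocrine pancreas is rich in Asns. Of 13 acinar markers listed, 2 were tested, Cela1 (3.47 to 5.31 CPM) and Rnase1 (3.29 to 7.25 CPM). The summed level of these 2 was 8.05 to 12.6 CPM in normal cys and 8.06 to 9.73 CPM in low cys. Of the markers not tested, Cela3b, Cel, Pnlip, Prss2, Cela2a and Ctrc had 0 counts in all 7 libraries.

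Both feedback genes had lower estimates in low cys. Trib3 encodes a pseudokinase that binds ATF4 and CHOP and restrains them, and lies on chromosome 2 from 152337422 to 152344032. It had 9.82, 18.8, 19.6 and 16.9 CPM in normal cys and 8.20, 10.1 and 9.80 CPM in low cys. The 3 low cys libraries lay close together, below 3 of the 4 normal cys libraries, while normal cys library X17SI4 fell among them. The means were 16.3 ± 4.44 (SD, n = 4) and 9.35 ± 1.01 CPM (SD, n = 3), a fold change of 0.574 (95% interval 0.392 to 0.841). The unadjusted p was 0.0093 and the adjusted p 0.794 (edgeR), and the exact permutation test over the 7 libraries gave p = 0.0857 (two-sided), where the smallest possible p is 0.0286. Leaving out single libraries gave log2 fold changes between -0.98 and -0.70. The tuft cell marker sum split the libraries as Trib3 did, while the enterocyte sum of X32SI4 was close to that of X17SI4. The sum of 6 tuft cell markers was 101 to 117 CPM in the 3 normal cys libraries with high Trib3, 54.1 CPM in X17SI4 and 66.1 to 67.5 CPM in low cys. All 6 had lower estimates in low cys, and none was at 0. An unadjusted edgeR p under 0.05 was reached by 3 of them, against 5.49% of all genes tested. The values of the enterocyte sum in the 3 normal cys libraries with high Trib3 were 53656 CPM (X32SI4), 75194 CPM (SI9) and 72320 CPM (X1SI4), against 51659 CPM in X17SI4 and 30025 to 51023 CPM in low cys. The part of these cells in the level of Trib3 was not tested.

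Ppp1r15a encodes GADD34, the stress-induced subunit that directs a phosphatase to eIF2 and so ends the response, and lies on chromosome 7 from 45522916 to 45526268. It had 12.5, 13.5, 26.1 and 29.0 CPM in normal cys and 13.1, 11.4 and 16.05 CPM in low cys. Normal cys libraries SI9 and X1SI4 were the highest, and the other normal cys libraries lay within the low cys range. The fold change was 0.667 (95% interval 0.405 to 1.10, adjusted p = 0.794 in edgeR). Ppp1r15b, which encodes the constitutive subunit for the same phosphatase, was at 273.6 ± 38.3 (SD, n = 4) and 251 ± 29.6 CPM (SD, n = 3), a log2 fold change of -0.12 (adjusted p = 0.846 in edgeR). Ppp1r15a is also an immediate early gene. Of 19 tested immediate early genes, 2 had an unadjusted edgeR p-value under 0.05, Junb and Cyr61, both with lower estimates in low cys, against 5.49% of all genes tested. The count was 4 with DESeq2, 5 without X32SI4 and 0 without SI9. Over all genes tested, these settings gave 940, 906 and 403, against 817 in the main fit. Junb had 122.2 to 184 CPM in normal cys and 83.3 to 121.9 CPM in low cys, so that the groups only just did not overlap (log2 fold change -0.52, adjusted p = 0.794 in edgeR), while Egr1, with a log2 fold change of 0.70, had the smallest p among those with a higher estimate.

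Sesn2 encodes sestrin 2, a leucine sensor that restrains mTORC1, and lies on chromosome 4 from 132492032 to 132510501. It had 8.41, 11.6, 15.6 and 16.8 CPM in normal cys and 15.5, 13.0 and 11.7 CPM in low cys, so that the low cys libraries lay inside the normal cys range. The fold change was 1.02 (95% interval 0.698 to 1.502, adjusted p = 0.978 in edgeR), and its log2 value stayed between -0.13 and 0.18 with single libraries left out. Ddit4 encodes REDD1, which restrains mTORC1 through the TSC complex and also answers to glucocorticoids and low oxygen, and lies on chromosome 10 from 59949675 to 59951770. It had 12.9, 13.5, 9.15 and 9.89 CPM in normal cys and 45.1, 8.62 and 12.1 CPM in low cys. X23SI4 had 3.35 times the level of the next library, while X26SI4 was the lowest of all 7. The fold change of 1.94 (95% interval 0.861 to 4.39, adjusted p = 0.794 in edgeR) rested on that mouse, and without X23SI4 the log2 fold change went from 0.96 to -0.12. Without X26SI4 its unadjusted edgeR p was 0.0153. X23SI4 exceeded every other library by more than 2 times in 0.141% of all genes tested. For the other libraries this share ran from 0.0942% (X32SI4) to 0.464% (X1SI4).

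Eif4ebp1 encodes 4E-BP1, which blocks the cap-binding factor eIF4E until mTORC1 phosphorylates it, and lies on chromosome 8 from 27260327 to 27275656. It had 16.7, 14.6, 13.6 and 30.6 CPM in normal cys and 21.4, 11.3 and 15.3 CPM in low cys. Normal cys library X1SI4 was the highest, and without it the log2 fold change went from -0.23 to 0.10. The fold change was 0.850 (95% interval 0.513 to 1.41, adjusted p = 0.857 in edgeR). X1SI4 was also the highest or the lowest of the 7 libraries more often than any other, the highest in 24.4% and the lowest in 24.9% of all genes tested.

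Per exon length the 10 genes were ranked by their median TPM (transcript abundance per exon length, scaled to the library) over the 7 libraries. Atf4 was far above the others, with a median of 233 TPM (range 198 to 286), higher than 96.1% of the genes tested. Eif4ebp1 followed with 29.1 TPM (22.3 to 60.0), Ddit3 with 17.2 TPM (11.5 to 27.1) and Ddit4 with 13.4 TPM (8.90 to 53.8). Trib3, Ppp1r15a, Asns, Atf5 and Sesn2 had medians between 7.24 and 9.16 TPM, and Eif2ak4 was lowest with 1.33 TPM (1.09 to 1.66). Only Atf4 and Eif2ak4 were separated from their neighbours in every library, and the 8 genes between them overlapped with the next in order.

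The genes fell into different orders of the libraries. Ddit3 and Trib3 were both high in X32SI4, SI9 and X1SI4 and both low in X17SI4 and the 3 low cys libraries. Since these are separate groups of libraries, no correlation is given for that pair. Asns and Ddit4 ordered the libraries alike (Pearson r = 0.80, Spearman rho = 0.93, exact permutation p = 0.00397 and 0.00675, adjusted p = 0.121 and 0.277, n = 7 libraries), and r was 0.78 without the 2 libraries farthest from the median of Asns and 0.80 with the diet means removed. Ddit3 and Eif2ak4 ran opposite to each other (Pearson r = -0.86, Spearman rho = -0.89, exact permutation p = 0.0177 and 0.0123, adjusted p = 0.199 and 0.277, n = 7), with r = -0.85 without the 2 libraries farthest from the median of Ddit3 and r = -0.85 with the diet means removed. None of the 45 pairs of genes passed adjustment over the pairs, with a smallest adjusted p of 0.121 for r and 0.277 for rho (exact permutation tests, Benjamini-Hochberg). At an unadjusted p under 0.05 for r there were 5 pairs. For Atf4 and Asns r was -0.19 and rho -0.04 (exact permutation p = 0.678 and 0.963, adjusted p = 0.847 and 0.963, n = 7), and r was 0.60 without the 2 libraries farthest from the median of Atf4 and -0.09 with the diet means removed.

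**Figure D3:**
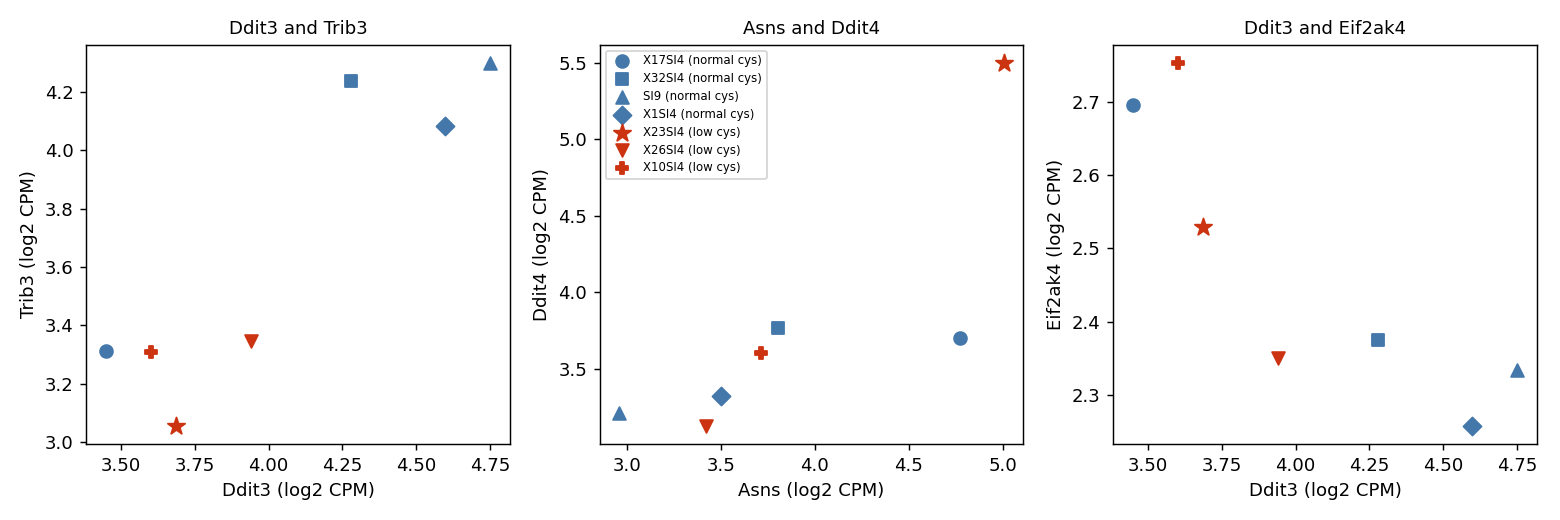
Log2 CPM of 3 pairs of genes in the 7 libraries, with 1 symbol per library, normal cys in blue and low cys in red. Ddit3 and Trib3 are both low in the 3 low cys libraries and in X17SI4, Ddit4 and Asns are both highest in X23SI4, and Eif2ak4 is higher where Ddit3 is lower.

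Over all genes tested, the levels most like Atf4 over the 7 libraries were those of Padi2 (r = 0.99), 2010107E04Rik (r = 0.98) and Ap1g2 (r = 0.98), and those most unlike it were Aebp2 (r = -0.98) and Ptch1 (r = -0.98). Asns was most like Cct2 (r = 0.99), Ints3 (r = 0.98) and Cct8 (r = 0.98), of which Cct2 and Cct8 encode subunits of the cytosolic chaperonin, and most unlike Fam198b (r = -0.98) and Lactb (r = -0.97). These are the extremes of 14869 genes over 7 libraries whose cell type marker levels differed. There were 38 genes with r above 0.9 to Atf4 and 106 to Asns.

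The other known ATF4 target genes were examined as a list of 30, of which 26 were tested. In edgeR 0 passed the threshold, adjusted or unadjusted, against 5.49% of all genes unadjusted, and 17 had higher and 9 lower estimates in low cys, where 51.2% of all genes tested had higher estimates. The list median was 0.24 on the log2 scale, against 0.01 over all genes. Without X23SI4 it was 0.03, with 15 of 27 tested genes higher. The number at an unadjusted p under 0.05 was 4 without X26SI4, 2 without X17SI4, X1SI4 or X10SI4, 1 without X32SI4 and 0 without SI9 or X23SI4. Over all genes tested, it was 958 without X26SI4, 1763 without X17SI4, 833 without X1SI4 and 522 without X10SI4. There were 906 without X32SI4, 403 without SI9 and 258 without X23SI4. The smallest p-values among the higher estimates were those of Slc38a2, Chac1 and Mthfd2. Chac1 encodes a glutathione-degrading enzyme, and had 1.88, 1.45, 1.68 and 2.29 CPM in normal cys and 12.9, 1.19 and 1.35 CPM in low cys. X23SI4 alone was high, at 5.62 times the next library, and the other low cys libraries were below every normal cys library (log2 fold change 1.52, standard error 0.76, adjusted p = 0.794 in edgeR). Without X23SI4 the log2 fold change was -0.51. Slc38a2 encodes the neutral amino acid transporter SNAT2, and had 61.5 to 82.8 CPM in normal cys and 121, 86.5 and 69.5 CPM in low cys (log2 fold change 0.42, and 0.18 without X23SI4, adjusted p = 0.794 in edgeR for all 7 libraries). Mthfd2, a mitochondrial folate enzyme, had 3.73 to 6.74 CPM in normal cys and 12.8, 4.00 and 6.06 CPM in low cys (log2 fold change 0.66, and 0.07 without X23SI4, adjusted p = 0.794 in edgeR for all 7 libraries). Lower estimates were led by Sqstm1, the autophagy receptor p62 (log2 fold change -0.52), Slc3a2, the heavy chain of the cystine carrier and of other amino acid carriers (-0.29), and Gpt2, alanine aminotransferase (-0.25), with adjusted p-values of 0.794, 0.794 and 0.807 in edgeR.

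X23SI4 was the highest of the 7 libraries in 16 of the 26 tested target genes (61.5%), against 18% of all genes tested, and in 3 of the 10 genes of the main group, Atf5, Asns and Ddit4. This count was chosen after the values were seen and has no test. For these 16 genes, X23SI4 was at 1.03 (Psph) to 5.62 times (Chac1) the next library. Among the 20 cytosolic aminoacyl-tRNA synthetases, X23SI4 was the highest for 9 (45%) and normal cys library X17SI4 for 8 (40%). The genes with the highest value in X23SI4 included those of serine synthesis, Phgdh (7.71 CPM, against 1.10 to 4.86 CPM in the other 6 libraries) and Psat1 (12.3 CPM, against 2.20 to 10.1 CPM), and the leucine transporter gene Slc7a5 (10.2 CPM, against at most 4.77 CPM). X23SI4 was not the highest library for Atf4 (208 CPM, against 182 to 254 CPM), Ddit3, Trib3 or Ppp1r15a, and for Trib3 it was the lowest. For Slc7a11, the cystine carrier xCT, the level was 0.573 to 1.10 CPM in normal cys and 1.55, 1.4999 and 0.322 CPM in low cys (log2 fold change 0.34, standard error 0.52, adjusted p = 0.868 in edgeR). Cth, which makes cysteine from cystathionine, had 37.4 to 48.9 CPM in normal cys and 36.5, 57.6 and 46.6 CPM in low cys (log2 fold change 0.12, adjusted p = 0.862 in edgeR). Too few counts kept 4 target genes out of the test, Aldh1l2, Stc2, Fgf21 and Slc7a3, with at most 15 counts in a library. Fgf21 had 4 counts in X23SI4 and 0 in the other 6.

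**Figure D4:**
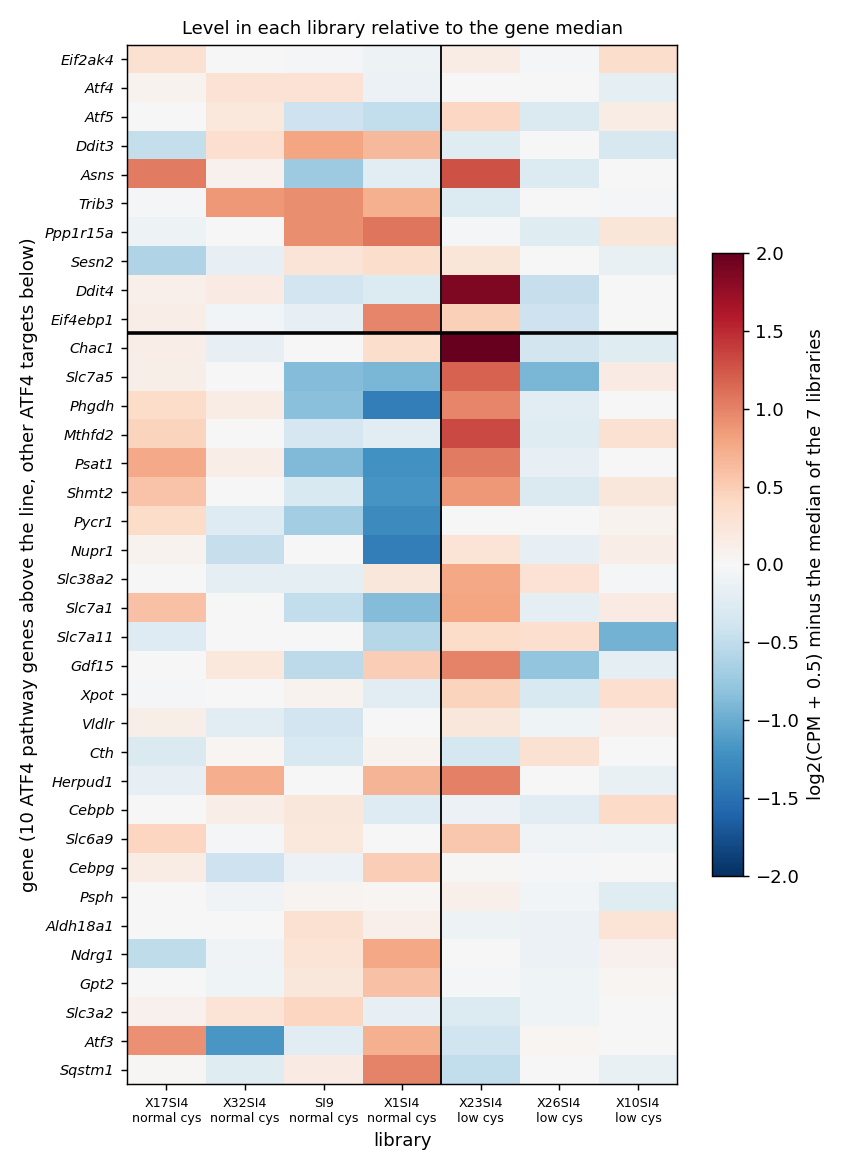
Level of the 10 genes (above the line) and of the 26 other ATF4 target genes tested (below it) in each library, as log2(CPM + 0.5) minus the median of the 7 libraries, with the color scale ending at 2 in either direction. X23SI4 is the highest library for 16 of the 26 target genes and for Atf5, Asns and Ddit4, while Ddit3, Trib3 and Ppp1r15a are higher in several normal cys libraries.

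Fkbp5 was also high in X23SI4. It encodes a chaperone partner induced by glucocorticoids, and had 27.7, 67.3, 11.7 and 16.5 CPM in normal cys and 147, 26.6 and 38.4 CPM in low cys (log2 fold change 1.199, standard error 0.72, adjusted p = 0.794 in edgeR). Of 11 tested glucocorticoid response genes, 0 passed an unadjusted edgeR p-value of 0.05, and 7 had higher and 4 lower estimates. Over all genes tested, 5.49% passed and 51.2% had higher estimates. Without X23SI4, 3 of the glucocorticoid response genes had higher and 8 lower estimates. X23SI4 was the highest library for 5 of the 11, against 18% of all genes tested. These were Fkbp5, Tsc22d3, Sgk1, Klf9 and Cebpd, at 2.18, 1.36, 1.31, 1.24 and 1.00 times the next library. This count was chosen after the values were seen and has no test. Among the other 6, Mt1 had the smallest p of the lower estimates (log2 fold change -0.51). Without X23SI4 the log2 fold change of Fkbp5 went from 1.199 to 0.09. Among 14 hypoxia response genes, 0 had an unadjusted p under 0.05, with 3 higher and 11 lower estimates. Vegfa had 92.0 to 247 CPM in normal cys and 109 to 112 CPM in low cys (log2 fold change -0.61, adjusted p = 0.794 in edgeR), and Pdk1 had a log2 fold change of 0.29. Among 12 tested p53 target genes, 1 had an unadjusted p under 0.05, Mdm2 (log2 fold change -0.34), against 5.49% of all genes tested. Aen (0.48) had the smallest p of the higher estimates. The parts of these inputs in the level of Ddit4 and Sesn2 were not tested.

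**Figure D5:**
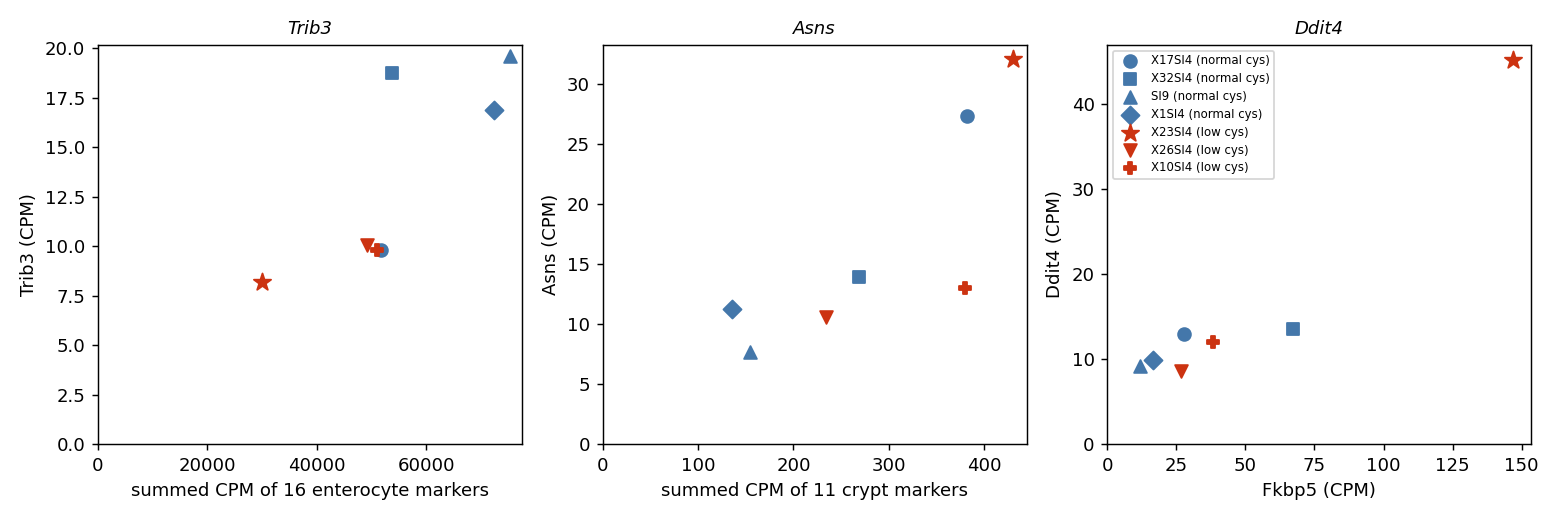
Levels in the 7 libraries of Trib3 against the summed enterocyte markers, of Asns against the summed crypt and proliferation markers, and of Ddit4 against Fkbp5, all in CPM on linear axes from 0, with normal cys in blue and low cys in red. Trib3 is lowest in X23SI4, which has the lowest enterocyte sum, and X23SI4 is highest for Asns, Ddit4, Fkbp5 and the crypt markers.

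Of 21 genes of the eIF2 kinases, eIF2 and its exchange factor eIF2B, 0 passed an unadjusted edgeR p of 0.05. Over all genes tested, 5.49% passed. The median log2 fold change of the 21 was 0.08, against 0.01 over all genes tested. Eif2ak1, the heme-regulated kinase, had the smallest p of the lower estimates (log2 fold change -0.23), and Eif2s3x, a subunit of eIF2, of the higher ones (0.16, adjusted p = 0.818 in edgeR). Eif2ak3, which encodes the ER stress kinase PERK, was at 39.3 ± 7.68 (SD, n = 4) and 34.3 ± 3.74 CPM (SD, n = 3), and Eif2ak2, which encodes PKR, at 48.1 ± 7.60 and 44.1 ± 7.25 CPM. Of 23 genes of the unfolded protein response of the endoplasmic reticulum, 0 had an unadjusted p under 0.05, and without X17SI4 there were 5. Over all genes tested, the count without X17SI4 was 1763, against 817 with all 7 libraries. The smallest p was that of Ern1 among the higher (log2 fold change 0.28) and of Sel1l among the lower estimates (-0.22). Of the 20 cytosolic aminoacyl-tRNA synthetases, 15 had higher and 5 lower estimates, and without X23SI4 10 and 10. With all 7 libraries, 51.2% of all genes tested had higher estimates. Only Qars, the glutaminyl-tRNA synthetase, had an unadjusted p under 0.05 and separate groups, with 169 to 187 CPM in normal cys and 143 to 154 CPM in low cys (log2 fold change -0.25, adjusted p = 0.794 in edgeR). Of all genes tested, 5.49% had such an unadjusted p and 6.83% had separate groups. Iars had the smallest p of those higher (0.33).

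Of 40 tested genes of mTORC1 and its amino acid sensing, 0 had an unadjusted edgeR p-value under 0.05, with 17 higher and 23 lower estimates. Over all genes tested, 5.49% had such a p-value and 51.2% had higher estimates. Rps6kb2, an S6 kinase, had 25.2 to 37.6 CPM in normal cys and 20.6 to 27.4 CPM in low cys (log2 fold change -0.39, adjusted p = 0.794 in edgeR). Eif4ebp3, a paralog of Eif4ebp1, had 2.16 to 4.31 CPM in normal cys and 7.02, 3.62 and 3.35 CPM in low cys (log2 fold change 0.68, and 0.27 without X23SI4, adjusted p = 0.794 in edgeR for all 7 libraries), with X23SI4 again highest. Among all 17 tested paralogs of the 10 genes, 5 had higher and 12 lower estimates, and 0 passed an unadjusted p of 0.05. The log2 fold change of Sesn1 was -0.08, of Sesn3 -0.01, of Eif4ebp2 0.00, of Trib1 -0.08, of Trib2 -0.13 and of Ddit4l 0.11. Among the related bZIP factors it was -0.39 for Atf3, 0.42 for Batf, 0.38 for Cebpd, 0.00 for Cebpb, -0.06 for Cebpa and -0.07 for Cebpg. Atf3, an early target of ATF4, ranged from 15.6 to 67.8 CPM within normal cys and from 26.7 to 36.4 CPM within low cys.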

How the data were processed

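The authors deposited raw counts per gene for 7 ileal libraries, together with each gene's summed exon length in bases, which is a column of the file per the file headers. The authors trimmed the reads (Trim Galore), removed ribosomal reads (SortMeRNA), used STAR for alignment to GRCm38, and obtained counts with featureCounts from an Ensembl annotation. Libraries came from a stranded polyA kit. The genes and lists were chosen with earlier results of these data known.

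Genes were kept by filterByExpr (minimum count 10, minimum total 15), scaled by TMM and entered into edgeR's quasi-likelihood test with robust estimation (version 4.0.16, R 4.3.3), which replaced the study's DESeq2 as the main test for counts, with Benjamini-Hochberg adjustment over all genes. Log2 CPM used a prior count of 2. Intervals are 95% intervals of the fit. TPM used the exon lengths. Single genes and pairs were compared by exact permutation tests (scipy 1.17.1). DESeq2 (1.42.0), limma-voom (3.58.1), other scalings and filters and leaving out each library were the alternatives. The steps were tested on simulated data. No pair of libraries held identical counts. Of the 50-base stretches of their GENCODE M21 transcripts, 2.87% in Eif4ebp1 and 3.27% in Ddit3 occur in transcripts of another gene entry, and 0 in the other 8 genes. Named genes are the 10 genes, the paralogs tested, and of each list the gene with the smallest p in each direction, with 3 for the ATF4 targets, plus the 3 most and 2 least like Atf4 and Asns. Further genes were chosen after their values were seen. Each library is taken as 1 mouse, and no batch is given in the sources used here. By the study's methods, RNA was purified with either RNeasy or Nucleospin columns, and the kit used for each library is not given.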

Additional observations from a re-analysis of the deposited data

How the results depend on the processing

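In each fit run, 0 of the 10 genes passed an adjusted p-value under 0.05. Over all genes, DESeq2 called 16 genes, and with each library left out in turn edgeR called between 0 and 1. The number of the 10 genes at an unadjusted p-value under 0.05, 1 in the fit as reported, was 2 with DESeq2 and 2 without a filter on low counts (Trib3 and Ddit3), and between 1 and 3 with each library left out, where 3 (Trib3, Ddit3 and Ppp1r15a) came without normal cys library X17SI4. The number of all genes at an unadjusted p-value under 0.05, 817 as reported, ranged from 258 without low cys library X23SI4 to 1763 without normal cys library X17SI4. The direction turned in 6 of 140 fits of single genes. These were Asns (-0.33), Ddit4 (-0.12) and Sesn2 (-0.08) without X23SI4, Sesn2 without X17SI4 (-0.13) and without X32SI4 (-0.0023), and Eif4ebp1 without X1SI4 (0.10), all as log2 fold changes. With single libraries left out the estimates reached from -0.33 to 0.77 (Asns), -0.12 to 1.36 (Ddit4), -0.13 to 0.18 (Sesn2) and -0.49 to 0.10 (Eif4ebp1). The cause of these shifts was not tested. Without X26SI4 the unadjusted edgeR p of Ddit4 was 0.0153, and without X10SI4 0.0472. Over all settings, the number at an unadjusted p-value under 0.05 ranged from 0 to 2 among the mTORC1, hypoxia and p53 lists, from 0 to 1 among the glucocorticoid, paralog and tRNA synthetase lists, and was 0 among the eIF2 genes. No paired analysis was made, because each library is taken as 1 mouse and each mouse belonged to 1 diet group. The 4 target genes that were not tested had too few counts for the filter, and low expression and depth cannot be told apart there.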
